A study of Mus musculus with 7 samples.

Results

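In islets, genes on Chr 2 around Rag1 were compared between NOD.ALRc8(D8Mit293-D8Mit137) mice, labelled NOD_Idd22, and NOD-Rag1-/- mice. Members were the named genes of the deposited annotation that start on Chr 2 within about 20 Mb of the start of Rag1 at 101638252 (GRCm38). For these distances, start means the lowest coordinate given, which for a gene on the minus strand is its 3′ end. Of 643 symbols in this window, 266 olfactory receptor genes and 6 further genes (Rag1, Cat, Pax6, Chac1, Ndufs3 and Ndufaf1) were left out by rule, which gave 371 of the 25793 named genes on the array. The choice used position and name and no measured value. NOD.ALRc8 is a congenic strain in which a stretch of NOD Chr 8, bounded by the named markers, was replaced with that of ALR, and its Rag1 is intact. NOD-Rag1-/- stands in for NOD without insulitis. It carries the Rag1 targeted mutation tm1Mom, made outside the NOD strain and crossed into it, and lacks mature T and B cells. There were 4 NOD.ALRc8 pools and 3 NOD-Rag1-/- pools of islets, each from 2 mice aged 10 to 12 weeks. A pool is the unit of replication, and no source used here gives which mice or litters went into which pool.

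Rag1 and its neighbour Rag2 encode the subunits of the recombinase that cuts immunoglobulin and T cell receptor genes during lymphocyte development. A mutation made in embryonic stem cells of another strain keeps DNA of that strain on both sides of the targeted gene after backcrossing, and a stretch is less often kept the farther it lies from the gene. Genes next to Rag1 can thus differ between the strains in sequence as well as in the cells that express them. How long the donor segment is in these mice is not given in the sources used here, and genotypes along Chr 2 were not analysed here. The window also holds genes with no known link to recombination: regulators of vessels and of white blood cells, kinetochore proteins, a nuclear pore subunit and islet secretory proteins.

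The promoters below are shown because they belong to 3 of the higher and 2 of the lower genes described in the following paragraphs. Each is the RefSeq sequence (GRCm38.p6) from 250 bases before to 50 after the annotated start of transcription, 5′ to 3′ on the gene's own strand. Capitals mark AGGAAG, a core bound by ETS factors such as PU.1, and AGATAA, a core bound by GATA factors, on either strand, where CTTCCT is AGGAAG on the opposite strand. These 2 motifs do not overlap in these sequences.
Calcrl, chr2:84425217-84425516, minus strand: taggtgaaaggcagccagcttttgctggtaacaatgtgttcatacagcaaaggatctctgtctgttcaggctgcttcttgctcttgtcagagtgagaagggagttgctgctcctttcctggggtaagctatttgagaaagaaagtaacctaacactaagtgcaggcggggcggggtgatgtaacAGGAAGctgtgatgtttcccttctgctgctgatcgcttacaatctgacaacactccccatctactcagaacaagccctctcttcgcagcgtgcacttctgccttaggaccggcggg
Cd44, chr2:102901616-102901915, minus strand: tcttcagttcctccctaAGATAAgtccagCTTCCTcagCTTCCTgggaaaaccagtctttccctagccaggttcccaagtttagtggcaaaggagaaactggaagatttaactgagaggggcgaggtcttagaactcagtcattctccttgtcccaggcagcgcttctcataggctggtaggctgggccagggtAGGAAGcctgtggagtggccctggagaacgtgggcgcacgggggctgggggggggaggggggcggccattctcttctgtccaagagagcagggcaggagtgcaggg
Plcb2, chr2:118728389-118728688, minus strand: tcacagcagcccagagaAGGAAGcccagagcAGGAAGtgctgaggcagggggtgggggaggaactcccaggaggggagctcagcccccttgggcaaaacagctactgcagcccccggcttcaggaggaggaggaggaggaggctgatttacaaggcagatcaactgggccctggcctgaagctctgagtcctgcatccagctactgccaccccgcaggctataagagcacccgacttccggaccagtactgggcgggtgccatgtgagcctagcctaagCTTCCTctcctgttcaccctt
Ldlrad3, chr2:102186411-102186710, minus strand: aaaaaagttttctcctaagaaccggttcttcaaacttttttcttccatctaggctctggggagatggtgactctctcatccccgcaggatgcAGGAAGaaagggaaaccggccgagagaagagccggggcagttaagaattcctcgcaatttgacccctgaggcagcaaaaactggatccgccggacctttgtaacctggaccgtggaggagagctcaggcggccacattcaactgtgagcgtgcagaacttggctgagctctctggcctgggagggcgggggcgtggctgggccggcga
Nup160, chr2:90676965-90677264, plus strand: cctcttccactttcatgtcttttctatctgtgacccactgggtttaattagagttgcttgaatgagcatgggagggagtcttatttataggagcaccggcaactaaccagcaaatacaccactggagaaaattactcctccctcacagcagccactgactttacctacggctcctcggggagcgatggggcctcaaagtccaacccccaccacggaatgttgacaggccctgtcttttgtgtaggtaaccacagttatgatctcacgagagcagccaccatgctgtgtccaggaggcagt
AGGAAG occurred 3 times each in the promoters of Cd44 and Plcb2, 1 time each in those of Calcrl and Ldlrad3, and 0 times in that of Nup160. AGATAA occurred 1 time, in Cd44. Of 32851 RefSeq promoters of this length, 35.4% hold AGGAAG and 11.2% hold AGATAA. Of the 322 promoters of 260 members, 33.2% and 12.1% hold them. These matches describe letters and not bound sites. Aplnr and Slc43a3 were not among the promoter entries.

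Values are log2 expression values that the authors made with RMA on the Affymetrix Mouse Gene 2.0 ST array. Differences are NOD.ALRc8 minus NOD-Rag1-/- from limma, so a positive log2 fold change is higher in NOD.ALRc8. A gene was counted as higher or lower when it passed the threshold in the study's methods, which asks for a log2 fold change beyond 0.5 in either direction and an unadjusted p of at most 0.05. The adjusted p is that of Benjamini and Hochberg over all 34351 annotated probe sets. By lower quartile the arrays formed 2 sets. It was 2.49 to 2.50 in NOD.ALRc8 replicate 1 and NOD-Rag1-/- replicates 2 and 3, and 2.64 to 2.68 in the other 4 pools. NOD-Rag1-/- replicate 1 also had a Y-linked signal (Ddx3y at 6.25, against 1.99 to 2.08 in the other 6 pools) and little Xist (2.56, against 9.69 to 10.28), the pattern of male tissue, while the labels give no sex. NOD-Rag1-/- replicate 1 is the only pool of its strain in the set at 2.64 to 2.68, and NOD.ALRc8 replicate 1 in the other. Differences within a single set are therefore given as values without a test. A fit with both sets as a block was run as an alternative and does give p-values. In the set at 2.64 to 2.68 its strain difference rests on NOD-Rag1-/- replicate 1, the pool with the male pattern. The islet label held, since Gcg, encoding glucagon, was 12.66 to 12.95 and Ins2, encoding insulin, 10.34 to 11.50 over the 7 pools. Rag1 itself was 3.25, 3.58, 3.64 and 3.87 in NOD.ALRc8 and 4.02, 3.63 and 4.21 in NOD-Rag1-/-, and since the deleted part is not given, its probe set checks no genotype.

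No gene of the region passed an adjusted p of 0.05 by limma (0 of 371, where 0.151% of all named genes passed), and 39 had an unadjusted p under 0.05, where 10.4% of all genes did. At the threshold of the methods 23 members passed, 15 higher and 8 lower in NOD.ALRc8. That is 6.20% of members, beside 6.11% of all named genes. Among all genes, 3.94% were higher and 2.18% lower. Of the 218 members above the median level 21 passed, beside 9.03% of all such genes. The pools did not overlap in 24 members, 15 higher and 9 lower, beside 7.89% of all genes (4.55% higher and 3.34% lower). The genes around Rag1 were thus called about as often as genes elsewhere. The median log2 fold change was 0.00 over the members and 0.01 over all named genes. Centring each array on its median moves all differences down by 0.12, and then 13 members were higher and 14 lower. The 15 higher members were spread over the window, at -17.31 to 18.45 Mb from the start of Rag1, while the 8 lower ones lay at -10.96 to 7.45 Mb, as the map of log2 fold changes by distance shows. Without the first pool of each strain, a setting chosen after seeing the data, 39 members passed (12.8% of all genes did), of which 21 were lower and 6 of these lay beyond 110 Mb. Some planned settings also placed lower members beyond 110 Mb. There were 2 with median centring, 3 with array weights, 3 without NOD.ALRc8 replicate 1 and 1 without NOD-Rag1-/- replicate 1. Of all genes, 4.53%, 4.45%, 4.89% and 3.07% were lower in these fits. The number was 0 after quantile normalization, by the methods' t-test, with the array sets as a block and without any other single pool.

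**Figure D1:**
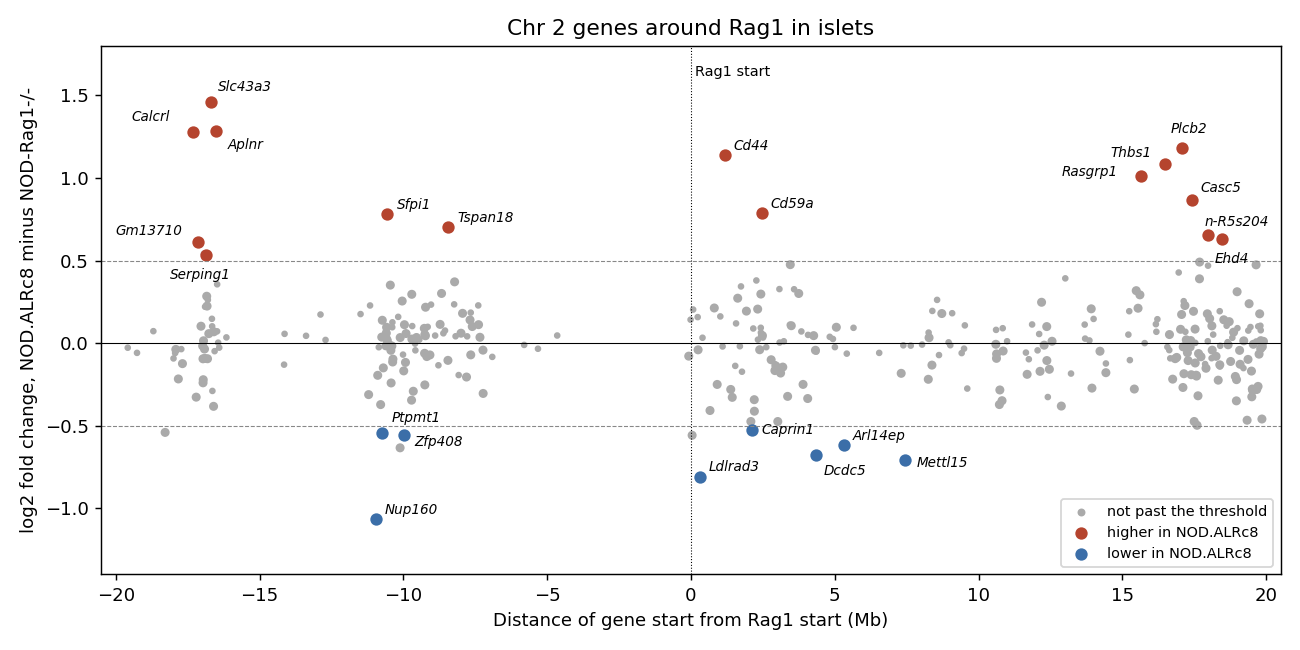
Log2 fold change (NOD.ALRc8 minus NOD-Rag1-/-) of each of the 371 genes against the distance of its start from that of Rag1 in Mb. Red points are the 15 genes higher and blue points the 8 genes lower at the threshold. Dashed lines mark the fold threshold, and small grey points are genes at or below the median level. In this fit the lower genes lie between -10.96 and 7.45 Mb, and in some other fits lower genes lie farther out.

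By distance from Rag1, the nearest genes had the widest spread of differences, and the intermediate ones the narrowest. Within 5 Mb, the median absolute log2 fold change was 0.16 over 66 genes. It was 0.10 over the 78 genes at 5 to 10 Mb and 0.11 over the 227 genes at 10 to 20 Mb, beside 0.13 over all other chromosomes. Among members above the median level of all probe sets, the medians were 0.28 within 5 Mb (36 genes), 0.12 at 5 to 10 Mb (41 genes) and 0.17 at 10 to 20 Mb (141 genes), beside 0.17 on the other chromosomes. The number past the threshold was 5 of 66 within 5 Mb (2 higher, 3 lower), 4 of 78 at 5 to 10 Mb (1 higher, 3 lower) and 14 of 227 at 10 to 20 Mb (12 higher, 2 lower). That is 7.58%, 5.13% and 6.17% of the bins, beside 6.11% of all named genes and 4.27% on the rest of Chr 2. Among all named genes, 3.94% were higher and 2.18% lower. These are few genes per bin, and the difference between bins was not tested. Over single genes, Spearman's rho between distance and absolute log2 fold change was -0.03 (371 genes) and -0.11 for the 218 members above the median level. The points share the same 7 arrays, so these values are a description. The median of 0.16 within 5 Mb was 0.12 without NOD.ALRc8 replicate 4 and 0.21 without both first pools.

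**Figure D2:**
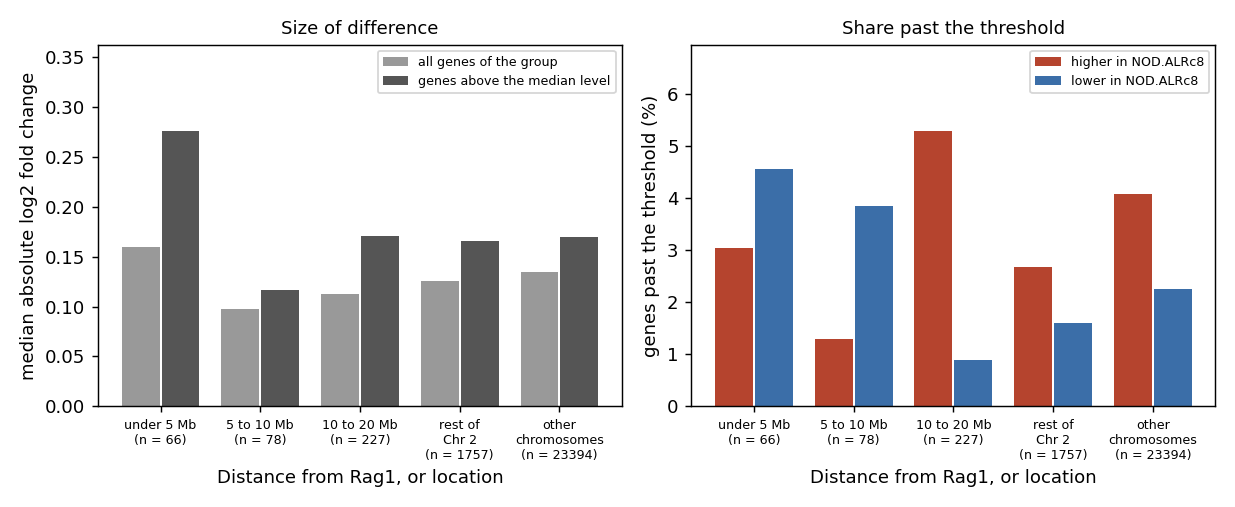
Left, median absolute log2 fold change of all genes and of genes above the median level by distance from Rag1 and elsewhere. Right, percent of genes past the threshold, higher or lower in NOD.ALRc8. The genes within 5 Mb stand at 0.16 and 0.28 on the left. On the right, the bin of 10 to 20 Mb has 12 higher and 2 lower of 227 genes. Of all named genes, 3.94% were higher and 2.18% lower.

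The genes that flank Rag1 most closely did not move as a block. Rag2, 0.01 Mb away, had values of 2.73, 2.73, 2.67 and 2.84 in NOD.ALRc8 and 2.74, 2.37 and 2.69 in NOD-Rag1-/-, with overlap. Its log2 fold change was 0.14 (SE, the standard error, 0.11, limma adjusted p = 0.697). B230118H07Rik, 0.08 Mb before Rag1, differed by -0.08 (SE 0.14). On the other side, Traf6, a ubiquitin ligase of Toll-like and interleukin-1 receptor signalling, starts 0.04 Mb from Rag1. It was 7.28, 6.33, 7.25 and 6.99 in NOD.ALRc8, against 7.36, 7.73 and 7.46 in NOD-Rag1-/-. All NOD.ALRc8 pools lay below all NOD-Rag1-/- pools, with a log2 fold change of -0.56 (SE 0.24, limma adjusted p = 0.529), and the unadjusted p of 0.0527 missed the threshold. Prr5l, an adaptor of mTOR complex 2 named after its values were seen, had 3.93, 3.96, 3.95 and 4.0 in NOD.ALRc8 and 3.89, 3.73 and 3.65 in NOD-Rag1-/-, without overlap but with a difference of only 0.20. Commd9, of endosomal sorting, was at 7.16 to 7.22 in NOD.ALRc8 and 7.20 to 7.25 in NOD-Rag1-/-. Its difference was -0.04 (SE 0.07). Trim44, a TRIM family protein, differed by -0.41 (SE 0.14) and Fjx1, a Golgi kinase, by 0.21 (SE 0.16). No gene above the median level started between B230118H07Rik and 7.23 Mb before Rag1, where Api5, an inhibitor of apoptosis, differed by -0.31 (SE 0.17).

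Ldlrad3, a membrane protein of the LDL receptor family whose start lies 0.31 Mb after that of Rag1, was lower in NOD.ALRc8 (probe set 17388705, Chr 2 from 101950201 to 102186385). Its values were 5.78, 5.21, 5.34 and 5.33 in NOD.ALRc8, against 6.18, 6.54 and 5.96 in NOD-Rag1-/-. The pools did not overlap, and NOD.ALRc8 replicate 1 came closest to the NOD-Rag1-/- pools. The log2 fold change was -0.81 (SE 0.18, 1.75-fold lower), with a limma adjusted p = 0.230. Its difference was -0.88 within the set of arrays with 3 NOD.ALRc8 pools and -0.47 within the other. The exact two-sided permutation p over the 35 splits of the pools was 0.0571, where 0.0286 is the smallest they allow. Pools that do not overlap leave only values this small, so it adds nothing to that separation.

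Nup160, a scaffold subunit of the nuclear pore, was the gene with the lowest log2 fold change of the region (probe set 17372984, Chr 2 from 90677215 to 90736328). It had 7.93, 6.95, 6.98 and 6.71 in NOD.ALRc8, against 8.05, 8.41 and 8.17 in NOD-Rag1-/-. NOD.ALRc8 replicate 1 lay next to the NOD-Rag1-/- pools and the other 3 more than 1 below them. The log2 fold change was -1.07 (SE 0.28, limma adjusted p = 0.316). Without NOD.ALRc8 replicate 1 it was -1.33 with a limma adjusted p = 0.0290, and over all 18 settings run the adjusted p ranged from 0.0290 to 0.976. Within the sets of arrays it was -1.17 with 3 NOD.ALRc8 pools and -0.36 with replicate 1 alone.

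The other 6 lower genes had differences of -0.53 to -0.71. Arl14ep, an effector of the small GTPase ARL14, had 6.0, 5.51, 5.41 and 5.51 in NOD.ALRc8, against 6.17, 6.39 and 6.12 in NOD-Rag1-/-. Mettl15, a methyltransferase of mitochondrial ribosomal RNA, had 5.15, 4.73, 5.15 and 4.13 in NOD.ALRc8, against 5.33, 5.51 and 5.64 in NOD-Rag1-/-. Neither gene's pools overlapped, and Zfp408, a zinc finger protein, likewise stayed below, at 4.78 to 5.42 in NOD.ALRc8 and 5.45 to 6.08 in NOD-Rag1-/-. Caprin1, an RNA-binding protein of stress granules, had overlapping pools at 6.45 to 6.98 in NOD.ALRc8 and 6.92 to 7.54 in NOD-Rag1-/-. The pools also overlapped in Ptpmt1, a mitochondrial phosphatase needed for cardiolipin, at -0.54, and in Dcdc5, a doublecortin domain gene, at -0.68, both named after their values were seen. The second probe set of Dcdc5 differed by -0.04. In all 8 lower genes NOD.ALRc8 replicate 1 was the highest of the 4 NOD.ALRc8 pools, in Mettl15 level with replicate 3. When the array sets entered the fit as a block, 2 of the 8 still passed the threshold, and 5.07% of all genes passed in either direction. Without NOD.ALRc8 replicate 1, all 8 still passed and 17 members in all were lower, where 10.1% of all genes passed in either direction. The 17 were 4.58% of members, where 4.89% of all genes were lower in that fit. With other pools left out, the share of members that were lower ran from 0.809% (3 members, without NOD.ALRc8 replicate 4 or NOD-Rag1-/- replicate 2) to 3.24% (12 members, without NOD-Rag1-/- replicate 1). The share of all genes that were lower was 1.21% without NOD.ALRc8 replicate 4, 0.872% without NOD-Rag1-/- replicate 2 and 3.07% without NOD-Rag1-/- replicate 1. There were 4 lower members without NOD.ALRc8 replicate 2 and 5 without NOD.ALRc8 replicate 3 or NOD-Rag1-/- replicate 3, where 1.14%, 2.00% and 1.11% of all genes were lower.

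**Figure D3:**
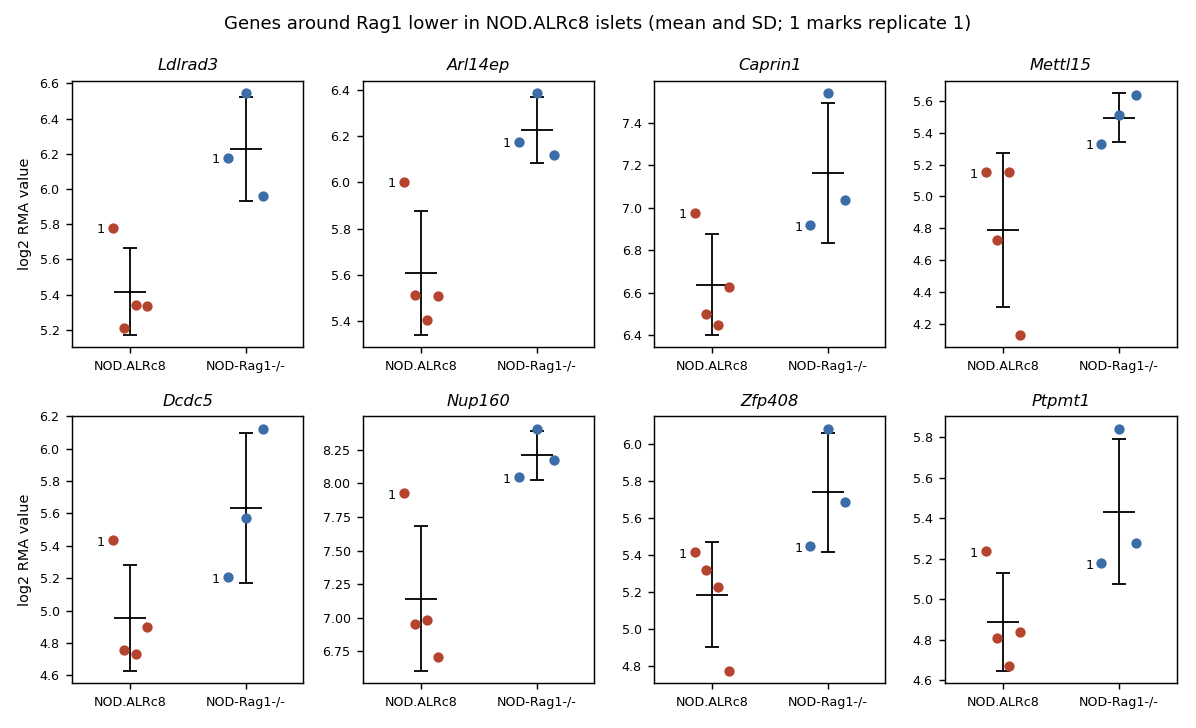
Log2 RMA values of the 8 genes lower in NOD.ALRc8, with NOD.ALRc8 pools in red and NOD-Rag1-/- pools in blue, the mean as a dash and the SD as bars. The digit 1 marks the first replicate of each strain; that of NOD.ALRc8 is the highest red point in each panel, in Mettl15 level with another.

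Genes of vessels made up the largest group among the higher members. Of 14 members listed for vessels, 6 were higher, 0 were lower and 0 passed an adjusted p of 0.05, where 3.94% of all genes were higher and 6.11% passed in either direction. Of these 14, 12 lay above the median level, where 9.03% of all such genes passed. The gene lists were chosen with earlier results of these data known, and Cd59a and Thbs1 are in other lists too. The count is thus a description and no test. The median log2 fold change of the vessel list was 0.35, beside 0.01 over all named genes. Aplnr, the apelin receptor of endothelial cells, had the smallest p of the region (probe set 17372725, Chr 2 from 85136360 to 85139923). Its values were 5.08, 5.01, 4.90 and 5.30 in NOD.ALRc8, against 3.89, 4.07 and 3.41 in NOD-Rag1-/-. The groups were separated by more than their spread, with a log2 fold change of 1.28 (SE 0.17, 2.43-fold, limma adjusted p = 0.0683). Slc43a3, a nucleobase transporter found in endothelium, was 6.72, 6.94, 6.85 and 7.04 in NOD.ALRc8, against 5.02, 5.23 and 6.03 in NOD-Rag1-/-. It had the largest log2 fold change of the region, 1.46 (SE 0.24, 2.75-fold, limma adjusted p = 0.103). Calcrl, the receptor that binds adrenomedullin and CGRP with RAMP partners, was 5.50, 5.99, 5.88 and 5.85 in NOD.ALRc8, against 4.18, 5.19 and 4.20 in NOD-Rag1-/-. NOD-Rag1-/- replicate 2 was the highest of its strain and still below every NOD.ALRc8 pool, and the log2 fold change was 1.28 (SE 0.26, limma adjusted p = 0.181). The exact permutation p was 0.0286, the smallest possible, for Aplnr, Slc43a3 and Calcrl alike. These 3 are among the higher genes named for pools that do not overlap, so this value follows from that choice. It adds no support, and pools did not overlap upward in 4.55% of all genes. Without both first pools 4 vessel genes were higher (Aplnr, Slc43a3, Calcrl and Tspan18) and 1 was lower, Tfpi, an inhibitor of coagulation named after its values were seen, where 12.8% of all genes passed in either direction.

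Other vessel genes differed less. Tspan18, an endothelial tetraspanin, was 6.50, 5.79, 6.11 and 5.89 in NOD.ALRc8, against 5.69, 5.22 and 5.20 in NOD-Rag1-/- (log2 fold change 0.70, SE 0.20). Within the sets of arrays it differed by 0.24 with 3 NOD.ALRc8 pools and by 1.29 with replicate 1, the highest pool. Cd59a, which blocks the membrane attack complex of complement, was 7.62, 7.21, 7.82 and 7.95 in NOD.ALRc8, against 6.43, 7.02 and 7.14 in NOD-Rag1-/- (log2 fold change 0.79, SE 0.23). Its paralogue Cd59b, named after its values were seen, differed by 0.06 (SE 0.19). Thbs1, the matrix glycoprotein thrombospondin, had overlapping pools at 6.83 to 8.02 in NOD.ALRc8 and 5.73 to 7.05 in NOD-Rag1-/-, with a log2 fold change of 1.08 (SE 0.38). It no longer passed without NOD-Rag1-/- replicate 1 or 3 or without NOD.ALRc8 replicate 4. The rest of the named vessel genes did not pass the threshold. Itgav, an integrin chain, differed by -0.04 (SE 0.09), Ctnnd1, a cadherin-binding catenin, by 0.10 (SE 0.09), and Ptprj, a receptor phosphatase, by -0.31 (SE 0.11), with all NOD.ALRc8 pools below the NOD-Rag1-/- pools. Lmo2, a transcriptional partner in blood and vessel cells, differed by 0.21 (SE 0.13).

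Of 18 members listed for white blood cells and inflammation, 4 were higher, 0 were lower and 0 passed an adjusted p of 0.05, with a median log2 fold change of 0.14, where 3.94% of all genes were higher. Cd44, the hyaluronan receptor of activated leukocytes and of some epithelia, starts 1.17 Mb from Rag1 (probe set 17388733, Chr 2 from 102811141 to 102901665). It was 7.98, 7.18, 7.45 and 7.37 in NOD.ALRc8, against 6.16, 6.41 and 6.49 in NOD-Rag1-/-. The lowest NOD.ALRc8 pool stood above the highest NOD-Rag1-/- pool, and the log2 fold change was 1.14 (SE 0.20, 2.20-fold, limma adjusted p = 0.112). The adjusted p was 0.0484 without NOD.ALRc8 replicate 1 and 0.0384 with a block for the array sets, and it ranged from 0.0384 to 0.740 over the 18 settings. Sfpi1, the gene of PU.1, which directs myeloid and B cells, was 5.75, 6.01, 5.54 and 5.82 in NOD.ALRc8, against 4.92, 4.71 and 5.36 in NOD-Rag1-/- (log2 fold change 0.78, SE 0.18, limma adjusted p = 0.231). Plcb2, a phospholipase C of blood cells, was 5.59, 5.25, 4.86 and 5.76 in NOD.ALRc8, against 3.74, 4.05 and 4.75 in NOD-Rag1-/-. The pools did not overlap, with a log2 fold change of 1.18 (SE 0.30). Rasgrp1, the exchange factor that activates Ras downstream of the T cell receptor, was 5.46, 5.53, 5.21 and 6.47 in NOD.ALRc8, against 4.43, 4.97 and 4.57 in NOD-Rag1-/- (log2 fold change 1.01, SE 0.30). Without both first pools 2 of these were higher, Cd44 and Sfpi1, and 1 of the 18 was lower, Spint1. Traf6, also among the 18, had all NOD.ALRc8 pools below the NOD-Rag1-/- pools (log2 fold change -0.56) but missed the threshold. Without NOD.ALRc8 replicate 1, Traf6 and Spint1 passed as lower and the 4 higher genes stayed higher. In that fit 4.89% of all genes were lower. Dgkz, a kinase that removes the diacylglycerol to which Rasgrp1 responds, differed by 0.02 (SE 0.22). Arhgap1, a GTPase-activating protein, differed by -0.17 (SE 0.12).

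**Figure D4:**
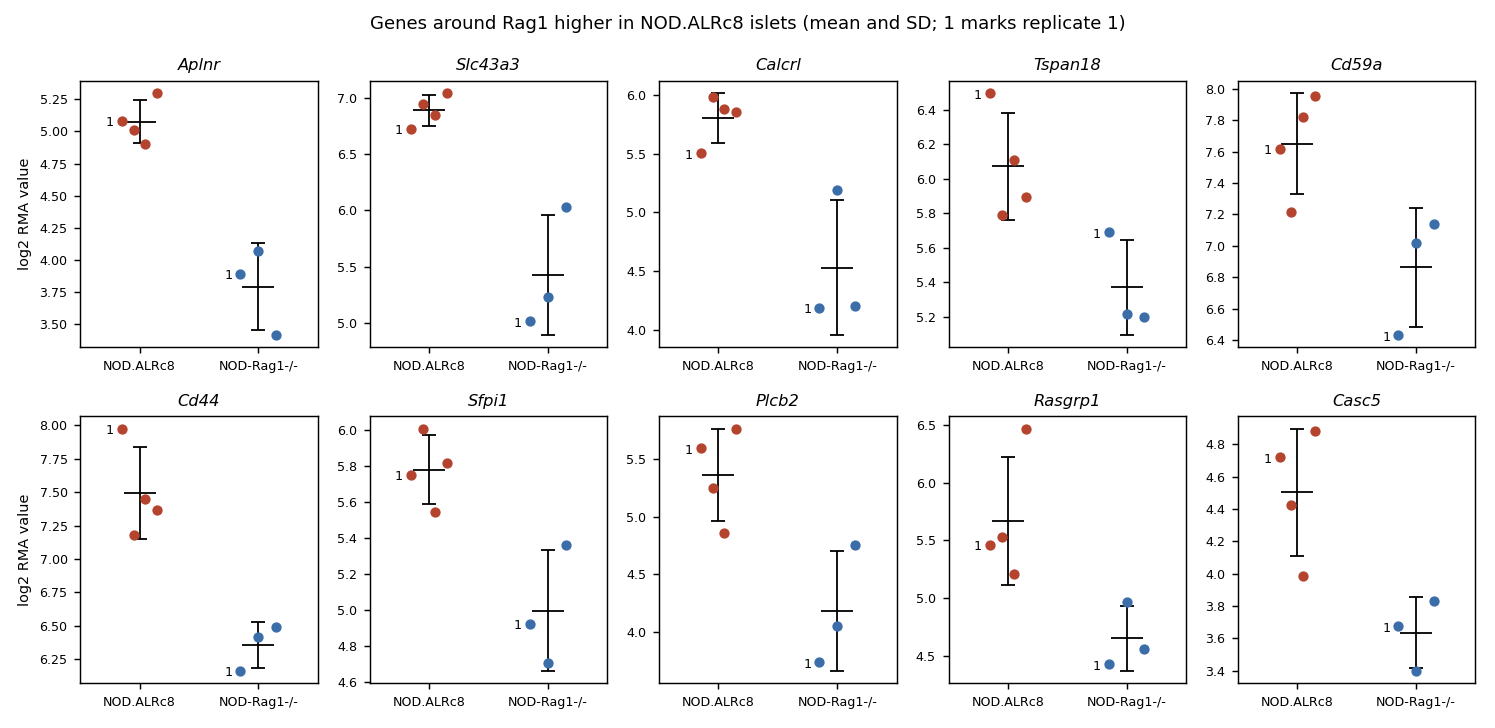
Log2 RMA values of 10 genes higher in NOD.ALRc8 whose pools do not overlap, with NOD.ALRc8 pools in red and NOD-Rag1-/- pools in blue, the mean as a dash and the SD as bars. The digit 1 marks the first replicate of each strain; in Aplnr the red pools lie at 4.90 to 5.30 and the blue ones at 3.41 to 4.07.

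Markers of other cell types, taken from genes outside the window, differed between the same pools. For the counts below, 3.94% of all named genes were higher at the threshold and 6.11% passed in either direction. In the mean log2 value of 10 endothelial markers, NOD.ALRc8 pools lay at 6.80 to 7.46 and NOD-Rag1-/- pools at 5.32 to 6.38, and 9 of the 10 were higher at the threshold. Of 10 T cell markers 9 were higher, with means of 5.18 to 6.40 in NOD.ALRc8 and 3.99 to 4.42 in NOD-Rag1-/-. Both lists thus separated the strains in every pool, as did the 10 B cell markers (9 higher, at 4.70 to 6.16 in NOD.ALRc8 and 3.48 to 3.81 in NOD-Rag1-/-). Of 10 macrophage and dendritic cell markers 5 were higher, at 5.89 to 7.28 in NOD.ALRc8 and 5.45 to 6.15 in NOD-Rag1-/-, with overlap. Fibroblast and pericyte markers had 2 of 10 higher, at 6.73 to 7.78 in NOD.ALRc8 and 5.81 to 6.95 in NOD-Rag1-/-. Acinar markers had 8 of 10 higher, at 7.46 to 9.67 in NOD.ALRc8 and 4.73 to 7.13 in NOD-Rag1-/-. Beta cell markers had 0 of 10 past the threshold, at 9.49 to 10.50 in NOD.ALRc8 and 9.73 to 10.21 in NOD-Rag1-/-, with NOD.ALRc8 replicate 1 the lowest pool. RMA values have no zero, so no marker can be called absent. In pooled islets, a different number of cells of a type and a different amount of RNA per cell cannot be told apart. The part of these marker differences in the vessel and leukocyte genes of the region was not tested.

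**Figure D5:**
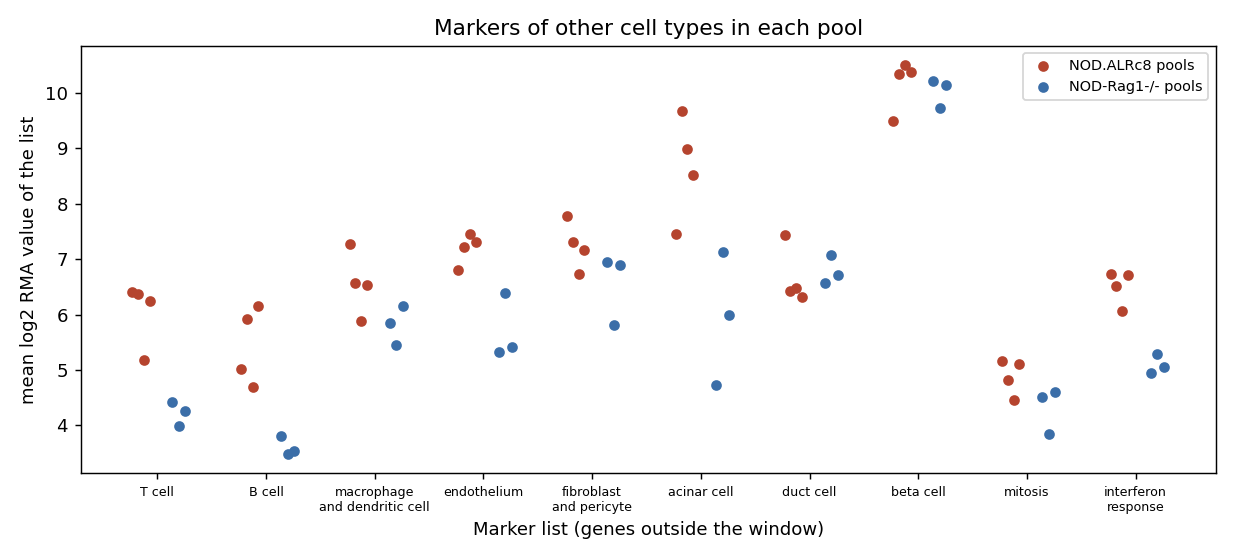
Mean log2 RMA value of each marker list in every pool, with NOD.ALRc8 pools in red to the left and NOD-Rag1-/- pools in blue to the right. Endothelial, T cell, B cell, acinar and interferon lists do not overlap between the strains, and the beta cell list does.

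Of 9 members listed for complement and interferon response, 2 were higher, among them Cd59a, and 0 were lower. Of all genes, 3.94% were higher and 6.11% passed in either direction. Serping1, the C1 inhibitor of complement and contact pathways, was 10.34, 9.63, 9.39 and 10.07 in NOD.ALRc8, against 9.22, 9.32 and 9.43 in NOD-Rag1-/-. NOD.ALRc8 replicate 3 lay among the NOD-Rag1-/- pools, and the log2 fold change was 0.53 (SE 0.23). The log2 fold change was 0.41 with median centring and 0.37 without NOD.ALRc8 replicate 1, and Serping1 kept its call only without NOD.ALRc8 replicate 2 or 3 among the fits that left out a pool. Without both first pools 0 of the 9 were higher and 1, Trim44, was lower, where 6.23% of all genes were lower. Ube2l6, the enzyme that conjugates the interferon-induced ISG15, was 6.87, 6.08, 6.01 and 5.92 in NOD.ALRc8 and 5.74, 6.08 and 6.0 in NOD-Rag1-/-. Only NOD.ALRc8 replicate 1 lay above the others. Outside the window, 8 of 10 interferon-response genes were higher, at means of 6.07 to 6.73 in NOD.ALRc8 and 4.94 to 5.29 in NOD-Rag1-/-. Psmc3, a proteasome ATPase, differed by 0.10 (SE 0.10), and Pdia3, a chaperone of glycoproteins in the endoplasmic reticulum, by 0.18 (SE 0.10).

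Of 21 members listed for mitosis and chromosome maintenance, 1 was higher and 1, Nup160, was lower. Of all genes, 3.94% were higher and 2.18% lower. Without both first pools 3 were lower, Nup160, Ssrp1 and Nat10, the last of which, an RNA acetyltransferase, was named after its values were seen. In that fit 6.23% of all genes were lower. Casc5 (Knl1), the kinetochore scaffold, was 4.72, 4.43, 3.99 and 4.88 in NOD.ALRc8, against 3.67, 3.40 and 3.83 in NOD-Rag1-/-. The log2 fold change was 0.87 (SE 0.22, limma adjusted p = 0.298), with NOD.ALRc8 replicate 3 the lowest of its strain. Other mitotic genes of the region, named after their values were seen, had smaller differences: 0.47 (SE 0.21) for the spindle protein Nusap1 without overlap of pools, 0.43 (SE 0.27) for the checkpoint kinase Bub1b with overlap, and -0.02 (SE 0.10) for the kinesin Kif18a. Ckap5, a microtubule polymerase, differed by 0.03 (SE 0.13). Outside the window 4 of 10 mitotic markers were higher, at means of 4.46 to 5.17 in NOD.ALRc8 and 3.84 to 4.61 in NOD-Rag1-/-, with overlap.

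None of the 25 members listed for islet endocrine and excitable cells passed the threshold, where 6.11% of all genes passed in either direction. The median log2 fold change of this list was -0.01. Map1a of this list, named after its values were seen, passed as higher without NOD-Rag1-/- replicate 1 and without both first pools. In these fits 17 and 18 members in all were higher. Without both first pools 12.8% of all genes passed in either direction. Scg5, the secretory chaperone 7B2 of prohormone convertase 2, was 9.82, 9.97, 9.97 and 9.60 in NOD.ALRc8 and 9.97, 10.09 and 9.97 in NOD-Rag1-/- (log2 fold change -0.17, SE 0.11). Within the window Scg5 had a single probe set. The mean over all probe sets of that symbol on the array, also those outside the window, differed by 0.20. Syt13, a synaptotagmin of endocrine cells, was 10.05, 10.26, 10.72 and 10.58 in NOD.ALRc8 and 10.38, 10.18 and 10.31 in NOD-Rag1-/-, and its difference of 0.11 (SE 0.17) was within the spread of the pools. Meis2, a homeobox factor, differed by -0.05 (SE 0.14) and Disp2, of the Dispatched family, by -0.19 (SE 0.19). Of the 19 members listed for mitochondria and metabolism, 0 passed, with a median of -0.07. This list does not hold Mettl15 and Ptpmt1, the mitochondrial genes described above as lower. Without NOD.ALRc8 replicate 1, Mtch2 of this list passed as lower (-0.53), where 4.89% of all genes were lower. Mtch2, an insertase of the outer mitochondrial membrane, differed by -0.37 (SE 0.22) and Immp1l, a peptidase of the inner membrane, by 0.05 (SE 0.07). Of 27 members for translation, splicing and protein handling, 1 was lower, Caprin1, and 0 were higher.

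Thbs1 was the 1 higher gene of 15 for mesenchyme and matrix and Cd44 the 1 higher gene of 10 for ducts and acini, and 0 were lower in either list, where 6.11% of all genes passed. Creb3l1, a transcription factor of secretory cells, differed by -0.29 (SE 0.41) and Rcn1, a calcium-binding protein of the endoplasmic reticulum, by 0.30 (SE 0.17). Ehf, an ETS factor of ductal epithelium, was 6.08 to 6.14 in the 4 NOD.ALRc8 pools and 5.21, 6.13 and 6.15 in NOD-Rag1-/-, where replicate 1 stood apart from the other 6 pools. Spint1, an inhibitor of epithelial serine proteases, was 9.48, 8.53, 8.78 and 8.97 in NOD.ALRc8, against 9.28, 9.57 and 9.47 in NOD-Rag1-/-. Its log2 fold change was -0.50 (SE 0.22), with NOD.ALRc8 replicate 1 among the NOD-Rag1-/- pools, and it passed the threshold as lower with median centring (-0.62). Outside the window, the duct list had 0 of 10 genes higher and 1 lower, at means of 6.32 to 7.44 in NOD.ALRc8 and 6.57 to 7.08 in NOD-Rag1-/-.

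The remaining 3 higher members were named after their values were seen. Ehd4, an ATPase of endocytic recycling, was 5.69, 6.24, 6.36 and 6.24 in NOD.ALRc8, against 5.39, 5.76 and 5.37 in NOD-Rag1-/- (log2 fold change 0.63, SE 0.19). Gm13710, a long noncoding RNA, was 2.38 to 3.03 in NOD.ALRc8 and 1.86 to 2.38 in NOD-Rag1-/- (log2 fold change 0.61, SE 0.19). n-R5s204, annotated as a pseudogene of 5S ribosomal RNA and hard to tell from its many copies, differed by 0.66 (SE 0.21). Gm13710 and n-R5s204 did not lie above the median level of all probe sets (3.96). With bright probe sets only, 13 members were higher. Of the 371 members, 262 are protein coding in RefSeq, and 21 of these passed the threshold against 2 of the other 109, where 6.11% of all genes passed. Only 26 of those 109 lay above the median level of all probe sets, against 192 of the 262. The 21 were all among these 192 and made up 10.9% of them, where 9.03% of all genes above that level passed. The 348 members that did not pass had log2 fold changes of -0.63 to 0.54, and 277 of them lay within 0.25 of zero. The region also holds 6 miRNA genes. Their log2 fold changes ran from -0.04 for Mir130a to 0.23 for Mir129-2, and the array measures their precursors or host transcripts.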

How the data were processed

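Islet RNA of 4 NOD.ALRc8(D8Mit293-D8Mit137) pools and 3 NOD-Rag1-/- pools was hybridized to Affymetrix Mouse Gene 2.0 ST arrays. The deposited log2 values were made by the authors with RMA (background correction, quantile normalization and summary per probe set), whose version is not given in the sources used here. A deposited table also holds the authors' log2 fold changes and the authors' p-values of their own comparison; these were not used, and it served only to name and place each probe set. Of 371 members, 328 matched a RefSeq gene and 325 of these overlapped its GRCm38 position on Chr 2. For a gene with several probe sets (10 members), the brightest over the 7 pools was used.

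Differences between strains were fitted by lmFit and eBayes of limma 3.58.1 under R 4.3.3, with no block, over 34351 annotated probe sets, with Benjamini-Hochberg adjustment over all of them, and 121 without annotation were not tested. Dim probe sets were kept, and the values carry no detection call. For single genes, all 35 ways to split the pools gave an exact two-sided permutation p. The fit was tested on simulated data. Plots were drawn with matplotlib 3.10.9 in Python 3.11.15. The number of arrays limits the precision.

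The members and gene lists were chosen with earlier results of these data known. Named genes are Rag2, the 5 nearest members on each side above the median level, up to 12 higher and 12 lower members past the threshold without overlap of pools, the members of 9 role lists that passed it and up to 4 of the brightest per list that did not, and the member with the smallest p. The alternatives were quantile normalization, median centring, bright probe sets only, the methods' t-test (unpaired, equal variances), a trend and robust fit, array weights, a block for the sets of arrays, a replicate block, leaving out each pool, the mean of probe sets, a window of 10 Mb and other thresholds.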

Additional observations from a re-analysis of the deposited data

Results flagged for a closer look

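In 3 of the 56 named genes, 1 of the 4 NOD.ALRc8 pools lay far from the other 3 by Dixon's ratio of the gap to the range, beyond its critical value. Chance gives about 1 such gene in 20. Psmc3 had a ratio of 0.905, with replicate 1 at 6.74 and the others at 6.58 to 6.60. Ube2l6 had a ratio of 0.831, with replicate 1 at 6.87 and the others at 5.92 to 6.08. Pamr1, which encodes a secreted protein named for regeneration of muscle, had a ratio of 0.927, with replicate 2 at 5.66 and the others at 6.04 to 6.07.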

How the results depend on the processing

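With 7 arrays, small differences are not measured well, and most counts moved with the processing. The cause was not tested. The number of members with an adjusted p under 0.05 by limma was 0 as reported, 1 after quantile normalization (Cd44), 1 with bright probe sets only (Aplnr), 2 with array weights (both genes), 1 with the array sets as a block (Cd44), 1 at an adjusted p under 0.10 (Aplnr), and 0 to 2 with a pool left out (Nup160 and Cd44 without NOD.ALRc8 replicate 1, Slc43a3 without NOD-Rag1-/- replicate 3). The 23 members past the threshold became 35 with array weights (9.43% of members, where 10.3% of all genes passed), 39 without both first pools (a setting added after seeing the data), 9 in a window of 10 Mb, 8 at a log2 fold change over 1, and 17 to 33 with a pool left out. The 15 higher ones became 3 in the window of 10 Mb and 12 to 17 with a pool left out. The 8 lower ones became 14 with median centring (4.53% of all genes were lower), 3 by the methods' t-test, 15 with array weights (4.45% of all genes), 2 with the array sets as a block, 21 without both first pools, and 3 to 17 with a pool left out. The median log2 fold change of members, 0.0015, became -0.0571 after quantile normalization, -0.118 with median centring, -0.0460 with bright probe sets, and -0.0159 to 0.0228 with a pool left out. The median absolute log2 fold change within 5 Mb, 0.160, became 0.276 with bright probe sets, 0.214 without both first pools, and 0.118 to 0.186 with a pool left out. Deviations of same-numbered pools correlated at -0.383, -0.143 and -0.108. In each such pair the pools belong to opposite array sets, so these values cannot show whether replicate numbers pair the pools. The replicate block, in which NOD.ALRc8 replicate 4 has no partner, gave 15 members past the threshold, 3 of them lower, and a median of 0.118 within 5 Mb. Of the 56 named genes, 21 changed sign in at least 1 of the 17 settings computed gene by gene, none of them among the 18 named genes past the threshold. Of these 18, 13 to 18 kept the call in each of the 17 settings, which do not include the narrower window or the log2 fold change over 1, and Cd59a, Plcb2, Rasgrp1, Thbs1 and Serping1 lost it without both first pools. Aplnr, Slc43a3, Calcrl, Tspan18, Cd44, Sfpi1, Casc5, Nup160 and Ldlrad3 kept it in all 17.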
